A study of Mus musculus with 27 samples.

Results

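The response to Wnt3a was followed in mammary tumour cell lines that make Bcl9 and Bcl9L only without the HD2 domain. The comparison took all 6 libraries labelled dHD2_rec with Wnt3a or with no cytokine out of the 27 of the series, that is, 3 cell lines that each gave 1 library per treatment, and its libraries were taken by these labels. The lines came from tumours of thoracic mammary glands of MMTV-PyMT mice (FVB/N), where a mouse mammary tumour virus promoter drives the polyoma middle T oncogene in mammary epithelium. In the genotype written Bcl9/Bcl9L_deltaHD2/- (dHD2/- here), the floxed alleles of Bcl9 and Bcl9L were removed in culture by a Cre adenovirus, and the alleles that lack HD2 were left. The dHD2/fl lines still hold a floxed functional allele beside the deltaHD2 allele, and dHD1/- and dHD1/fl lines carry the corresponding deletion of the HD1 domain. All lines share the PyMT oncogene and 1 mutant allele, so no line with both Bcl9 and Bcl9L alleles intact is part of the comparison. Cells received Wnt3a at 100 ng/ml for 3 days or growth medium alone, with a labelled time of 4 days for the untreated cells and of 3 days for the Wnt3a cells, while the protocol describes RNA isolation of both at the same time.

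Wnt ligands such as Wnt3a bind Frizzled receptors and Lrp5 or Lrp6 and stop the destruction complex of Axin, Apc and Gsk3 from marking β-catenin for degradation. β-catenin then enters the nucleus and binds transcription factors of the TCF/LEF family on target genes. Bcl9 and Bcl9L bind β-catenin through HD2 and Pygopus through HD1 and so act as adapters of the transcription complex, and the question is which genes answer Wnt3a where the contact with β-catenin is lost.

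The libraries used held 22.2 to 27.95 M reads assigned to genes (21.9 to 33.7 M over the series), and 3 reads corresponded to 0.107 to 0.135 CPM, a unit that scales each library to 1e+06 gene-assigned reads. Lines 2 and 3 were close to each other and far from line 1. Of 13270 genes tested, line 1 without cytokine stood at least 4-fold, on the scale of CPM + 1, above both other lines in 664 and below both in 222, while lines 2 and 3 differed by as much in 1 gene. Vim, an intermediate filament protein of mesenchymal cells, was at 761, 2.48 and 2.60 CPM in lines 1, 2 and 3. Tnc, which encodes the matrix protein tenascin-C, was at 1575, 0.135 and 0.126 CPM. Ctnnb1, the β-catenin gene, was at 1120, 5094 and 5406 CPM. Line 1 is therefore given beside the other lines throughout. Their counts were not those of 1 library deposited in duplicate (36.0 chi-square units per gene between lines 2 and 3 without cytokine and 13.5 with Wnt3a, where counting noise gives about 1), but separate cultures of 1 line could differ as much. The labels speak of lines from different mice but do not say whether lines 2 and 3 do, and the p-values may then measure only the spread between these cultures.

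The labels call the cells epithelial. Epcam was at 724 to 910 CPM, Cdh1 at 534 to 935 CPM and Krt8 at 601 to 1540 CPM, and 13 of 16 epithelial markers were at 1 CPM or more in each. So were 10 of 16 mesenchymal markers, with Fn1 the largest. In untreated lines 1, 2 and 3 the mesenchymal markers summed to 7373, 9769 and 8462 CPM and the epithelial ones to 8136, 3970 and 4028 CPM. With Wnt3a the sums were 6417, 2628 and 3273 CPM against 9791, 4500 and 4548 CPM. The 10 fibroblast markers summed to 18.6 and 16.1 CPM in line 1 and to at most 1.35 CPM in the other lines. Lum, Thy1, Fap and Dpt, fibroblast genes, and Ptprc, the leukocyte marker CD45, had no read.

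Bcl9 and Bcl9l totals do not check the genotype, because a deletion of HD2 removes only part of each transcript. Bcl9 was at 43.8, 54.1 and 52.8 CPM in lines 1, 2 and 3 without cytokine and at 43.9, 50.6 and 48.0 CPM with Wnt3a. Bcl9l was at 181, 149 and 138 CPM without cytokine and at 204, 109 and 122 CPM with Wnt3a. Neither gene passed the test (log2 fold change -0.08 ± 0.19 (SE) for Bcl9 and -0.15 ± 0.15 for Bcl9l, adjusted p 1.00 and 0.974 by limma).

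Axin2, the scaffold of the destruction complex and a feedback target of the pathway, was the 1 gene of 13270 tested called at an adjusted p up to 0.05 with a change of 1 or more on the log2 scale in either direction (0.00754% of genes). Axin2 was at 0.131, 0.675 and 0.544 CPM in lines 1, 2 and 3 without cytokine and at 17.7, 21 and 18.4 CPM with Wnt3a. These values rest on 3, 15 and 13 reads against 460, 506 and 514 reads, and the groups do not overlap. Axin2 rose by 4.05, 3.71 and 3.65 on the log2 scale in lines 1, 2 and 3, so here line 1 was not apart from the others. In the fit, which pairs the libraries of each line, Axin2 rose by 3.80 ± 0.32 (SE, n = 3 lines, limma, adjusted p = 0.000534). The adjusted p ranged from 2.2e-05 to 0.191 over the alternatives, and with the 6 libraries fitted alone Axin2 was no longer called.

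The lack of further calls stands beside a sizeable spread between lines. At an unadjusted p of at most 0.05 and a fold of at least 1.5, 168 genes were higher (1.27%) and 226 lower (1.70%) with Wnt3a, and 728 genes (5.49%) had an unadjusted p under 0.05 by limma. The last share is close to that which a p under 0.05 gives where no gene responds. Without line 1 the fit called 67 genes, 36 higher and 31 lower, by the same test, on 2 lines that are nearly alike. Calls without line 1 are therefore descriptive below, and for genes named because line 1 stood apart they give no separate support.

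The genes were therefore also ordered by how they differed in each line, with no test. A difference of at least 1 on the log2 scale of CPM + 1, the same way in all 3 lines, was found for 9 genes higher (0.0678%) and 11 genes lower (0.0829%) with Wnt3a. These counts depend on the pseudocount, with 39 higher and 36 lower at 0.1. The 9 higher genes were Axin2, Mab21l4, Stra6, Msln, Notum, Ppfibp2, Capn5, Mal and C1qtnf1. The promoter windows of Axin2 and Stra6 are shown, 250 bases before and 50 after a transcript start, because TCF/LEF factors read the letters searched for in them (CTTTGAA with its variant CTTTGAT, besides CTTTGTA with its variant CTTTGTT, on both strands, where the motifs share their leading letters), with matches in capitals. They are from RefSeq (GRCm38.p6), at chr11:108920099-108920398 on the plus strand for Axin2 and at chr9:58129099-58129398 on the plus strand for 1 of the 4 listed starts of Stra6:
Axin2: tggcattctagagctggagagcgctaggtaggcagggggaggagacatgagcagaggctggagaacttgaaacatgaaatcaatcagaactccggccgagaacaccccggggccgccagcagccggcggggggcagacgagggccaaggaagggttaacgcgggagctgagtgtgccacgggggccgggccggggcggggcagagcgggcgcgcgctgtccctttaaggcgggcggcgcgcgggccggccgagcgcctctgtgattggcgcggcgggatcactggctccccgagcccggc
Stra6: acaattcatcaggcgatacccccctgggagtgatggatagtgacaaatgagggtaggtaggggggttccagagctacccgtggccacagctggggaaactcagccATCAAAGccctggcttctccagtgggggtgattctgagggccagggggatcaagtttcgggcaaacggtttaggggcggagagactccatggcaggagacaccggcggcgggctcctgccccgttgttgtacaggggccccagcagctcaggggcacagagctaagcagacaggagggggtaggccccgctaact
The Axin2 window held no match and the Stra6 window 1. Of all 32851 windows in the table, 16.9% held a match, and of the 13353 windows of genes tested 11.5% did. Of the windows that matched these genes, 1 of 12 of the higher genes (5 of 9 genes matched) and 0 of 10 of the lower genes (9 of 11 genes matched) did.

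**Figure D1:**
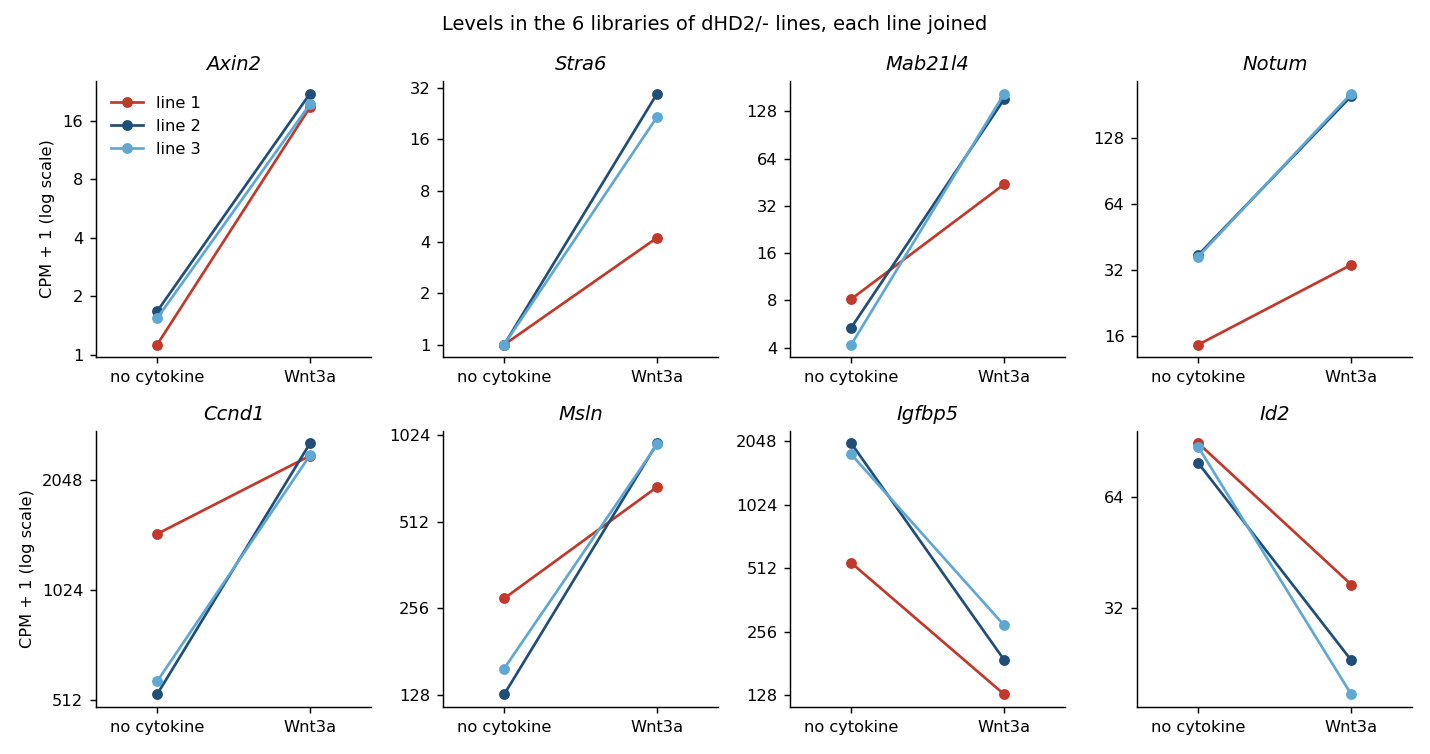
CPM + 1 on a log scale, with no cytokine and with Wnt3a, for 8 genes in the 6 libraries of dHD2/- lines, where a line joins the libraries of 1 cell line. Axin2 went from under 1 CPM to 17.7 to 21 CPM in all 3 lines, while line 1 (red) had the smallest step for Stra6, Mab21l4, Notum, Ccnd1, Msln and Id2.

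Stra6, the membrane receptor through which cells take up vitamin A, had no read in any of the 3 untreated libraries. With Wnt3a it was at 3.24, 28.6 and 20.6 CPM in lines 1, 2 and 3, so the groups do not overlap. Against the level of 3 reads per library these are at least 24.7-fold, 212-fold and 164-fold higher. The fit gave a log2 fold change of 3.80 ± 0.67 (SE, n = 3 lines, adjusted p = 0.136 by limma, 0.00199 to 1.00 over the alternatives), and Stra6 (chr9:58063793-58154004) was called with a pseudocount of 0.1, by edgeR and without line 1. None of the other 12 tested genes of the retinoid pathway differed by 1 in all 3 lines. With 0.0678% of all genes higher and 0.0829% lower by that measure, this says little about so short a list. Rara, a retinoic acid receptor, was at 80.3, 59.5 and 53.6 CPM without cytokine and at 84.0, 27.4 and 29.2 CPM with Wnt3a.

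Notum, a secreted esterase that removes the lipid of Wnt proteins and so limits the pathway, was at 13.5, 36.4 and 35.8 CPM without cytokine and at 32.7, 198 and 203 CPM with Wnt3a. It was higher in 3 of 3 lines, by 2.42-fold, 5.44-fold and 5.69-fold, and line 1 with Wnt3a stood below the untreated libraries of lines 2 and 3, so the groups overlap. The fit gave 2.03 ± 0.43 on the log2 scale (adjusted p = 0.249 by limma, 0.0788 to 1.00 over the alternatives), which does not pass the threshold.

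Mab21l4 was at 7.16, 4.37 and 3.18 CPM without cytokine and at 43.0, 152 and 165 CPM with Wnt3a. The smallest step was again that of line 1 (6.0-fold, against 34.9-fold and 51.9-fold). Its adjusted p was 0.116 by limma, and 0.0113 without line 1.

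Msln, the surface glycoprotein mesothelin, was at 276, 128 and 158 CPM without cytokine and at 674, 956 and 947 CPM with Wnt3a. Ppfibp2, a liprin family protein, was at 2.45, 22.5 and 22.6 CPM without cytokine and at 6.32, 95.2 and 95.4 CPM with Wnt3a. Capn5, a calpain protease, was at 6.24, 5.36 and 4.73 CPM and then at 13.7, 26.0 and 24.5 CPM. For Msln and Capn5 every Wnt3a library was above every untreated one, whereas Ppfibp2 in line 1 stayed below the untreated level of the others. Mal, a membrane protein of apical transport, was at 50.8, 37.6 and 50.2 CPM without cytokine and at 104, 212 and 202 CPM with Wnt3a. C1qtnf1, a secreted protein with a C1q domain, was at 42.2, 0.225 and 0.335 CPM and then at 85.9, 3.86 and 3.72 CPM, so that its level set line 1 apart far more than the cytokine did. The adjusted p of these 5 genes lay between 0.505 and 0.920 by limma, and without line 1 Ppfibp2 was called (0.0398).

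Igfbp5, a secreted binding protein of insulin-like growth factors, was the most abundant of the 11 lower genes. It was at 541, 1995 and 1768 CPM without cytokine and at 128, 187 and 273 CPM with Wnt3a. All Wnt3a libraries lay below all untreated ones, with 4.21-fold, 10.7-fold and 6.47-fold lower levels. The log2 fold change was -2.72 ± 1.49 (SE, n = 3 lines, adjusted p = 0.920 by limma).

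Id2, a helix-loop-helix protein that blocks differentiation factors, was at 88.8, 78.3 and 86.7 CPM without cytokine and at 36.1, 22.1 and 17.6 CPM with Wnt3a. The untreated levels of the 3 lines were close here, and the groups do not overlap. Its paralogue Id3 was at 183, 27.7 and 28.5 CPM and then at 116, 8.67 and 7.30 CPM, lower in 3 of 3 lines but by less than 1 in line 1. Adjusted p was 0.563 for Id2 and 0.788 for Id3 by limma.

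Atp6v0a4, a subunit of the vacuolar proton pump, was like Sod3 in that its largest step was in line 1. It was at 56.2, 155 and 125 CPM without cytokine and at 5.16, 26.3 and 27.9 CPM with Wnt3a. Sod3, the extracellular superoxide dismutase, was at 107, 596 and 648 CPM and then at 31.2, 269 and 279 CPM. Bpifb4 was at 34.6, 1.94 and 3.27 CPM and then at 7.82, 0.124 and 0.358 CPM. For Sod3 and Bpifb4 the groups overlap, because the level of line 1 is far from that of lines 2 and 3.

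In most of the other lower genes line 1 had the smallest step. Gas1, a growth arrest gene anchored at the membrane, was at 14.4, 46.1 and 38.6 CPM without cytokine and at 3.89, 3.61 and 5.01 CPM with Wnt3a. Loxl3, a lysyl oxidase that crosslinks collagen, was at 24.5, 104 and 128 CPM and then at 11.5, 5.93 and 6.12 CPM. Olfm1, a secreted olfactomedin, was at 11.2, 47.6 and 69.7 CPM and then at 4.74, 3.20 and 2.07 CPM. In these 3 genes line 1 had the lowest untreated level, and the treated levels of the 3 lines were closer to each other than the untreated ones. Wfdc3, a protease inhibitor family member, was at 30.6, 31.7 and 37.0 CPM without cytokine and at 8.55, 2.24 and 2.40 CPM with Wnt3a. Slc5a3, a myo-inositol transporter, was at 116, 158 and 94.2 CPM and then at 47.8, 32.0 and 45.0 CPM. Mcam, the adhesion molecule CD146, was at 154, 34.7 and 36.0 CPM and then at 73.2, 9.42 and 10.5 CPM, with overlapping groups. None of the 11 lower genes passed the test, with adjusted p between 0.225 and 0.920 by limma, and without line 1 Olfm1 was called (0.0150).

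Of 28 listed Wnt feedback and target genes, 19 were tested. Besides Axin2 no member passed the test. At the unadjusted threshold 5 were higher (Axin2, Notum, Ccnd1, Tcf7 and Fgf18) and 1 was lower (Lef1), against 1.27% and 1.70% of all genes. The median log2 fold change of the list was 0.06, near the -0.03 of all genes tested. Ccnd1, the gene of cyclin D1 that drives entry into S phase, was at 1458, 529 and 574 CPM without cytokine and at 2389, 2584 and 2396 CPM with Wnt3a. The lines reached nearly the same level from different starting points, with steps of 1.64-fold, 4.88-fold and 4.17-fold. The log2 fold change was 1.69 ± 0.30 (adjusted p = 0.136 by limma, and 0.0101 without line 1).

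TCF/LEF genes themselves differed in their direction. Tcf7, the gene of TCF1, was at 27.6, 18.7 and 20.7 CPM without cytokine and at 45.7, 38.4 and 36.9 CPM with Wnt3a, and it was higher in 3 of 3 lines without overlap. Lef1 had no read in line 1 under either condition, and it was at 19.1 and 18.5 CPM in untreated lines 2 and 3 and at 1.54 and 2.00 CPM with Wnt3a. Tcf7l1, a TCF factor that mainly represses, was at 25.1, 8.65 and 7.28 CPM and then at 22.1, 2.20 and 3.33 CPM. The adjusted p was 0.795 for Tcf7, 0.678 for Lef1 and 0.897 for Tcf7l1 by limma.

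Other classical targets showed little. Nkd1, Sp5, Dkk1, Dkk4 and Ascl2, feedback or stem cell targets in other tissues, were under the expression filter, and Lgr5 had at most 1 read in a library. Znrf3, a ligase that removes Frizzled, was at 34.8, 39.1 and 37.3 CPM without cytokine and at 47.1, 40.7 and 43.8 CPM with Wnt3a. Its log2 fold change was 0.24 ± 0.14 with a 95% interval of -0.06 to 0.53. Rnf43, the paralogue of Znrf3, had a log2 fold change of 0.01 ± 0.29. Myc, a growth factor target, was at 145, 181 and 193 CPM and then at 171, 226 and 233 CPM, with a log2 fold change of 0.28 ± 0.20 and an interval of -0.17 to 0.72.

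Of 12 tested Wnt ligand genes and their processing factors, 1 was higher at the unadjusted threshold (1.27% of all genes), Wnt7a, at 27.8, 1.13 and 3.52 CPM without cytokine and at 44.4, 8.88 and 7.55 CPM with Wnt3a. Of 18 receptors and coreceptors and 11 TCF corepressors, none passed it in either direction, which at 1.27% and 1.70% of all genes says little about these short lists. Wls, the carrier that brings Wnt proteins to the cell surface, had a log2 fold change of -0.13 ± 0.26. Ctnnb1 was at 1027, 5270 and 5166 CPM with Wnt3a, close to its untreated levels, with a log2 fold change of -0.05 ± 0.19.

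Taken singly, line 2 had 355 genes higher and 605 lower by at least 1, and line 3 had 374 and 170. In lines 2 and 3 together, 207 genes were higher (1.56%) and 133 lower (1.00%) by at least 1 in both, and in line 1 35 genes were higher (0.264%) and 240 lower (1.81%). Of these, 9 of the higher genes were shared, which is 25.7% of those of line 1 and 4.35% of those of lines 2 and 3. Of the lower genes 11 were shared, or 4.58% of those of line 1 and 8.27% of those of lines 2 and 3. Across the 13270 genes, which are not independent, the response of line 1 had a Pearson correlation of 0.42 with that of line 2 and of -0.07 with that of line 3, against 0.59 between lines 2 and 3.

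**Figure D2:**
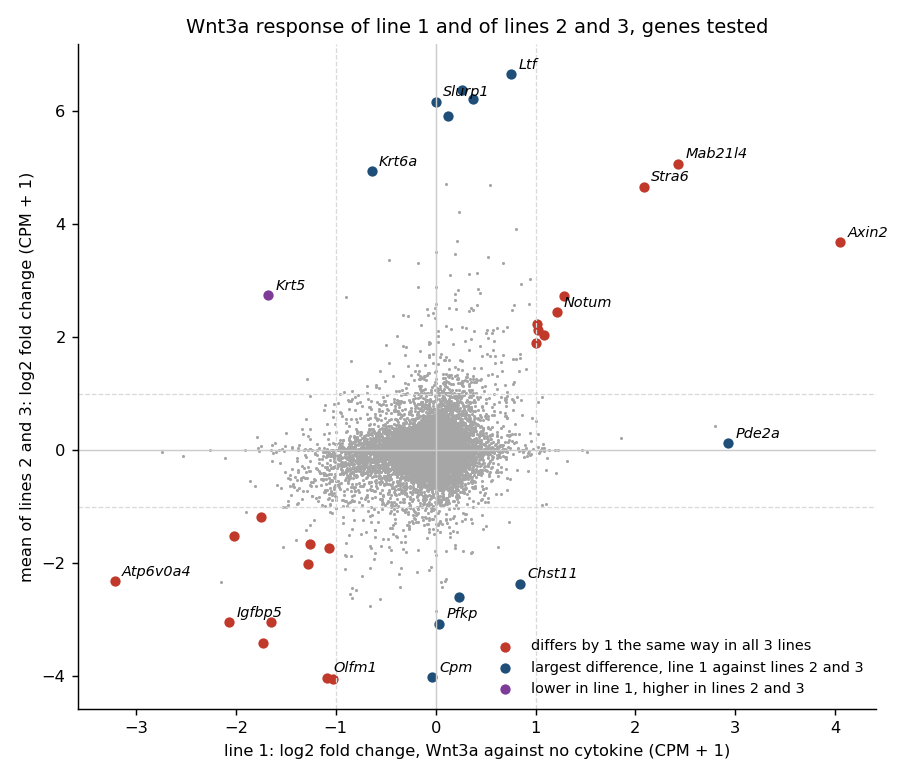
Log2 fold change with Wnt3a in line 1 against the mean of lines 2 and 3 for 13270 genes, on CPM + 1, with dashed lines at a difference of 1. Axin2 lies near 4 on both axes, a column of keratinocyte genes lies near 0 for line 1 and above 4 for the other lines, and Krt5 lies alone in the upper left.

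Transcript GC content moved with these responses. Among 12785 of the genes with a matched transcript, the log2 fold change had a correlation with GC content of 0.50 in line 1, of 0.18 in line 2 and of -0.24 in line 3. Among genes at 1 CPM or more, the lowest of 5 equal groups by GC content (31.0 to 43.9%) had medians of -0.37, -0.26 and 0.29. In line 1, 167 of its 2224 genes (7.51%) were lower by 1, against 10 of 2224 (0.450%) in the highest group. Corrected for GC content and length, 81 genes instead of 240 were lower in line 1 and 363 instead of 605 in line 2, and the correlation was 0.34 between lines 1 and 2, 0.08 between lines 1 and 3 and 0.71 between lines 2 and 3. With this correction Axin2 was still the 1 gene called (adjusted p = 0.000241 by limma), and the part of GC content in the other differences was not tested.

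**Figure D3:**
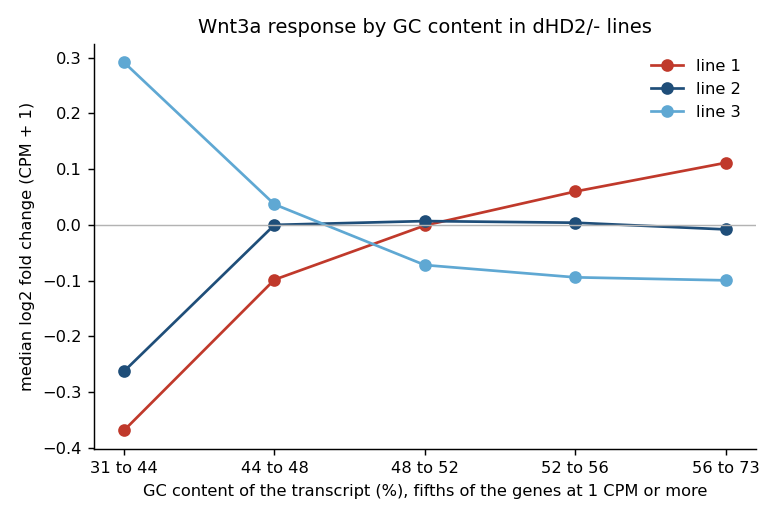
Median log2 fold change with Wnt3a (y axis, on CPM + 1) in 5 equal groups of the genes at 1 CPM or more by GC content of the transcript (x axis, %), for each dHD2/- line. The medians of the lowest group were -0.37 in line 1, -0.26 in line 2 and 0.29 in line 3, and all others lay within 0.12 of 0.

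Keratinocyte genes set line 1 apart from the others. Of 17 tested genes of epidermal differentiation, 8 were higher by 1 in lines 2 and 3 (1.56% of all genes) and 0 in line 1, and their median log2 fold change was 1.05 in lines 2 and 3 and 0.09 in line 1. Krt6b, a keratin of activated epidermis, was at 0.218, 0.270 and 0.502 CPM without cytokine and at 0.462, 113 and 115 CPM with Wnt3a. Its paralogue Krt6a was at 18.0, 0.495 and 0.712 CPM and then at 11.2, 47.3 and 49.0 CPM, and reads of these near-identical genes may be split between them. Sprr1a, a precursor of the cornified envelope, was at 1.22, 1.22 and 2.18 CPM and then at 1.89, 197 and 198 CPM. In all 3 genes line 1 stayed within 1 on the log2 scale while lines 2 and 3 were higher by 4.87 to 6.48. Tgm1, the transglutaminase that crosslinks the envelope, was at 2.53, 1.44 and 2.05 CPM without cytokine and at 3.58, 14.2 and 14.3 CPM with Wnt3a. Klk10, a kallikrein protease, was at 259, 23.9 and 25.0 CPM and then at 319, 121 and 105 CPM. Krt1, Sprr2d, Dsc1, Lor and Ivl, also genes of epidermal differentiation, stayed under 1 CPM in all 6 libraries.

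Further genes outside the list stood with them. Slurp1, a secreted protein of keratinocytes, was at 0.306, 1.31 and 3.10 CPM without cytokine and at 0.308, 214 and 227 CPM with Wnt3a. Krt90, a type II keratin, was at 0.131, 9.23 and 15.2 CPM and then at 0.231, 816 and 747 CPM. Ltf, the iron-binding lactoferrin of milk and glands, was at 6.16, 0.225 and 1.51 CPM and then at 11.1, 261 and 119 CPM. Only Ltf of these 3 was free of overlap between the groups. Without line 1, Slurp1 (adjusted p = 0.0224), Sprr1a (0.0388) and Ltf (0.00443) were called by limma, while Krt6b (0.135) and Krt90 (0.166) were not. These genes are shown because line 1 did not follow the others, so the calls give no separate support.

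Krt5 was the 1 gene lower by 1 in line 1 and higher by 1 in the others. This basal keratin was at 73.2, 123 and 107 CPM without cytokine and at 22.2, 749 and 796 CPM with Wnt3a. Its partner Krt14 was at 1000, 1453 and 1207 CPM and then at 814, 2635 and 3097 CPM, which is the same order with smaller steps. Krt7, a keratin of simple epithelium, was at 1383, 12.7 and 14.8 CPM and then at 2410, 224 and 217 CPM. Krt7 was higher in 3 of 3 lines (adjusted p = 0.225 by limma, and 0.00197 without line 1).

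**Figure D4:**
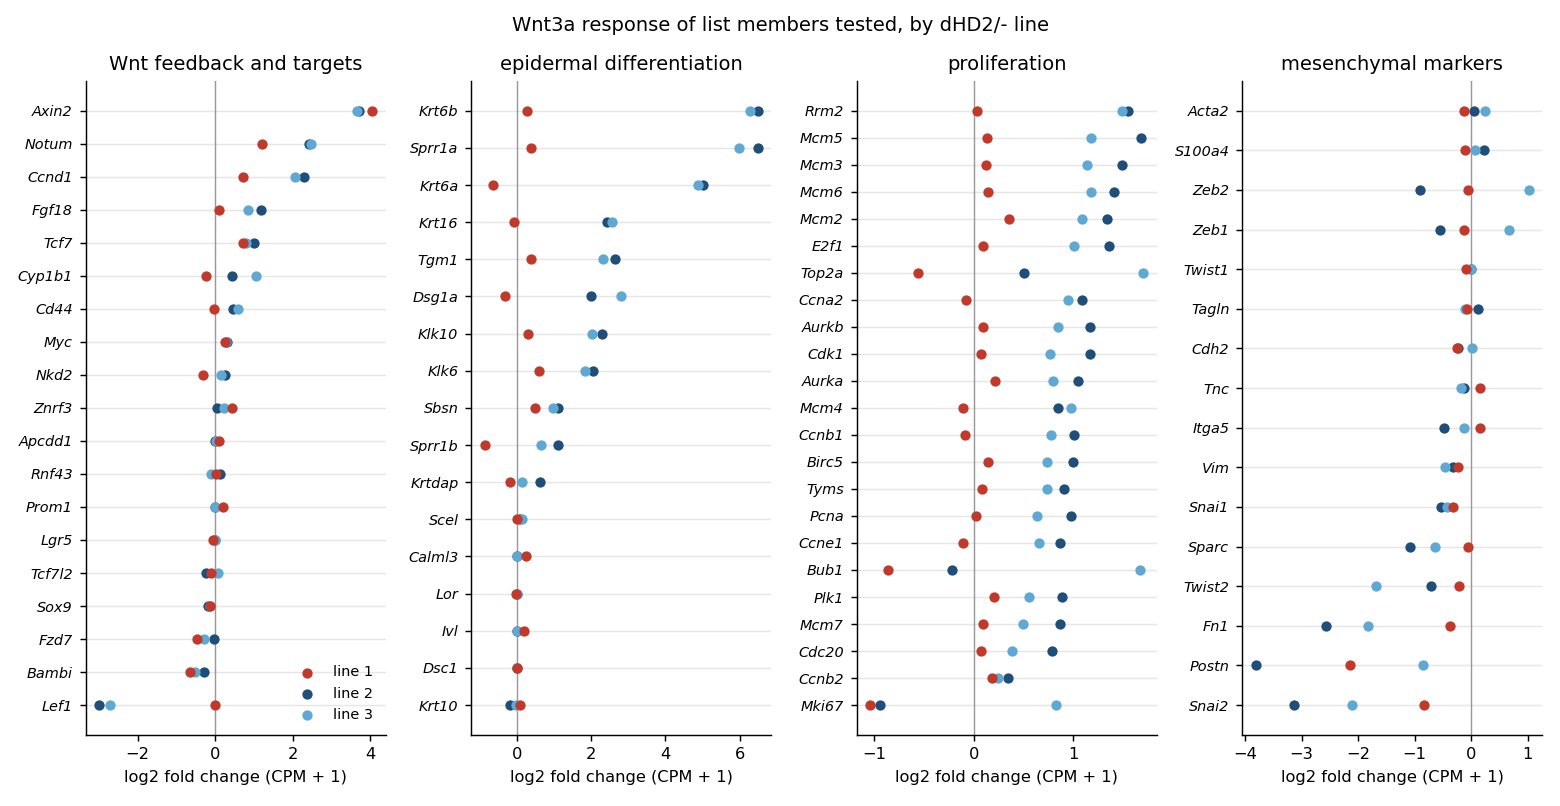
Log2 fold change with Wnt3a (x axis, on CPM + 1) of the tested members of 4 gene lists in line 1 (red), line 2 (dark blue) and line 3 (light blue). Axin2 stands near 4 in all lines. In line 1 epidermal and proliferation genes have medians of 0.09 and 0.08, with members down to -0.86 and -1.04. In lines 2 and 3 they lie mostly above 0.

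Of 23 tested proliferation genes, 21 were above 0 with Wnt3a in both lines 2 and 3 (26.8% of all genes), and 16 were above 0 in line 1 (45.1%). In lines 2 and 3, 6 members were higher by 1 (1.56% of all genes) and the median log2 fold change was 0.91, while in line 1 no member was higher by 1 (0.264%) and the median was 0.08. None passed the test in the fit of 3 lines. Summed over the list, untreated levels were 4193, 1738 and 1718 CPM in lines 1, 2 and 3, and with Wnt3a they were 4106, 3007 and 3276 CPM. Lines 2 and 3 thus stood below line 1 under both conditions. Mcm6, a subunit of the replicative helicase, was at 264, 82.4 and 97.7 CPM without cytokine and at 291, 220 and 221 CPM with Wnt3a. E2f1, a factor of S phase genes, was at 56.8, 22.2 and 27.5 CPM and then at 60.6, 58.5 and 56.1 CPM. Mki67, the proliferation marker Ki-67, did not follow them, at 254, 353 and 170 CPM and then at 123, 183 and 302 CPM. In bulk libraries a larger share of dividing cells and more RNA of these genes per cell cannot be told apart.

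Of 11 tested CDK inhibitors and D cyclins, 2 (Cdkn1a and Ccnd1) were higher by 1 in lines 2 and 3 (1.56% of all genes) and none in line 1. Cdkn1a, the inhibitor p21, was at 117, 251 and 254 CPM without cytokine and at 118, 596 and 611 CPM with Wnt3a. Cdk6, a partner of D cyclins, was at 139, 118 and 109 CPM and then at 141, 229 and 225 CPM. Neither passed the test, with adjusted p of 0.784 and 0.704 by limma.

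Of 19 tested sterol synthesis genes, 18 were above 0 in lines 2 and 3 (26.8% of all genes) and 8 in line 1 (45.1%), with a median of 0.45 in lines 2 and 3 and of -0.05 in line 1, and none was higher by 1 in both lines. Hmgcs1, an enzyme of mevalonate synthesis, was at 306, 228 and 171 CPM without cytokine and at 229, 298 and 346 CPM with Wnt3a.

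Among 16 mesenchymal markers, 2 were lower by 1 in lines 2 and 3 (1.00% of all genes) and none was higher, and the list median was -0.22 there and -0.12 in line 1. Fn1, the matrix protein fibronectin, was at 4149, 8664 and 7273 CPM without cytokine and at 3207, 1465 and 2049 CPM with Wnt3a. Every Wnt3a library was below every untreated one, by 1.29-fold, 5.91-fold and 3.55-fold. Snai2, a repressor of epithelial genes, was at 2.79, 21.7 and 10.9 CPM and then at 1.12, 1.58 and 1.75 CPM. Snai2 was called without line 1 (adjusted p = 0.0134 by limma) and had an adjusted p of 0.182 with it. Twist2, another repressor, was lower at the unadjusted threshold with a log2 fold change of -0.88. Vim and Cdh2, N-cadherin, lay closer to 0, as Vim had a log2 fold change of -0.34 ± 0.54 and Cdh2 was at 154, 137 and 127 CPM and then at 129, 117 and 129 CPM. By single lines, 1 marker was lower by 1 in line 1 (at -2.15, 1.81% of all genes) and 4 in line 2 (4.56%). In line 3, 3 were lower by 1 (1.28%) and 1 was higher (2.82%). Cdh1, E-cadherin, was at 923, 682 and 712 CPM without cytokine and at 935, 564 and 534 CPM with Wnt3a, and its log2 fold change was -0.22 ± 1.00.

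Of 18 tested AP-1 and early response genes, 4 were lower by 1 in lines 2 and 3 (1.00% of all genes) and none was higher by 1. In both of these lines 12 members were below 0 (33.4% of all genes) and 3 above it (26.8%). In line 1, 1 member was lower by 1 (1.81% of all genes), 7 were above 0 (45.1%) and the median was -0.17. Fosb, a subunit of AP-1, was at 9.78, 8.78 and 3.56 CPM without cytokine and at 12.8, 0.871 and 0.930 CPM with Wnt3a. Egr1, a zinc finger factor induced by growth signals, was at 67.3, 101 and 62.6 CPM and then at 52.7, 13.8 and 23.5 CPM. Neither passed the test (adjusted p 0.892 and 0.528 by limma).

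Further genes were lower in lines 2 and 3 alone. Cpm, a membrane carboxypeptidase, was at 4.63, 112 and 74.8 CPM without cytokine and at 4.51, 3.61 and 6.05 CPM with Wnt3a, so that lines 2 and 3 reached the level of line 1. Pfkp, an isoform of the glycolytic enzyme phosphofructokinase, was at 89.3, 20.7 and 19.2 CPM and then at 91.5, 1.83 and 1.18 CPM. Col11a2, a fibrillar collagen chain, was at 1.62, 87.5 and 82.3 CPM and then at 2.08, 12.7 and 13.8 CPM. All 3 were called without line 1 (adjusted p 0.000501, 0.0226 and 0.0140 by limma). They are shown because line 1 did not follow lines 2 and 3, so these calls give no separate support. Chst11, a sulfotransferase of chondroitin chains, was at 1.22, 92.1 and 69.6 CPM and then at 3.00, 13.0 and 16.7 CPM. In the other direction, Pde2a, a phosphodiesterase of cyclic nucleotides, was at 2.58, 0.180 and 0.293 CPM without cytokine and at 26.3, 0.332 and 0.358 CPM with Wnt3a, a difference seen in line 1 alone.

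Ahr, the aryl hydrocarbon receptor, was at 15.5, 16.3 and 15.6 CPM without cytokine and at 17.1, 37.4 and 37.7 CPM with Wnt3a. Its target Cyp1a1 stayed under 0.1 CPM in all 6 libraries. Aldh3a1, an aldehyde dehydrogenase, was at 57.6, 26.8 and 19.6 CPM and then at 41.4, 68.0 and 69.3 CPM. Both genes were apart only in lines 2 and 3, with adjusted p of 0.892 and 0.931 by limma.

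No member passed the unadjusted threshold among 12 Notch pathway genes, 19 interferon-stimulated genes, 17 chemokines and cytokines, 11 luminal markers or 10 basal markers. At 1.27% higher and 1.70% lower of all genes, this says little about lists of that length. By single lines, 5 of the 17 chemokines and cytokines were higher by 1 in line 2 (2.68% of all genes) and none in line 3. In line 1, 3 of the 10 basal markers and 2 of the 11 luminal markers were lower by 1 (1.81% of all genes), with a median of -0.60 for the basal list. Of 18 TGFb target genes, 1 (Bhlhe40) was higher and 2 (Id2 and Id3) were lower at the unadjusted threshold, against 1.27% and 1.70% of all genes. The study listed 38 Wnt3a-regulated genes whose expression was affected in both deltaHD2 and β-catenin mutant lines, set against wild-type controls. That is another comparison than the one here, made partly from these same libraries and so no independent evidence. Of the 38 genes, 35 were tested, of which 8 were higher (1.27% of all genes) and 1 was lower (1.70%) at the unadjusted threshold.

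The response in dHD2/- lines was set beside that of the other genotypes, of which dHD2/fl and dHD1/fl keep a functional allele. Axin2 was higher with Wnt3a by 4.21 to 4.42 on the log2 scale in dHD2/fl lines, by 3.11 to 3.86 in dHD1/- lines and by 4.57 to 5.95 in dHD1/fl lines, 2 lines each. The difference in response of dHD2/- minus dHD2/fl lines was -0.51 ± 0.51 (95% interval -1.62 to 0.60, adjusted p = 1.00 by limma), and its direction depended on the scale, at 0.61 ± 0.85 with a pseudocount of 0.1 and 0.74 by edgeR. As ratios of CPM, Axin2 was 24.4-fold and 28.9-fold higher in dHD2/fl lines and 31.1-fold and 33.8-fold higher in dHD2/- lines 2 and 3, while the 3 untreated reads of line 1 give no firm ratio. In absolute level, Axin2 with Wnt3a was at 72.7 and 78.0 CPM in dHD2/fl lines against 17.7 to 21 CPM in dHD2/- lines, and without cytokine at 2.97 and 2.70 CPM against 0.131 to 0.675 CPM. Stra6 was higher by 6.63 to 6.84 in dHD2/fl lines, against 2.08 to 4.89 in dHD2/- lines. The difference for Stra6 was -2.93 ± 1.06 (interval -5.23 to -0.63) with an adjusted p of 1.00 by limma, so it failed the correction over all genes, and with no read in untreated dHD2/- libraries it was -1.03 at a pseudocount of 0.1 and 3.47 by edgeR. Notum was higher by 2.76 to 3.00 in dHD2/fl lines, a difference of -0.85 ± 0.68.

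**Figure D5:**
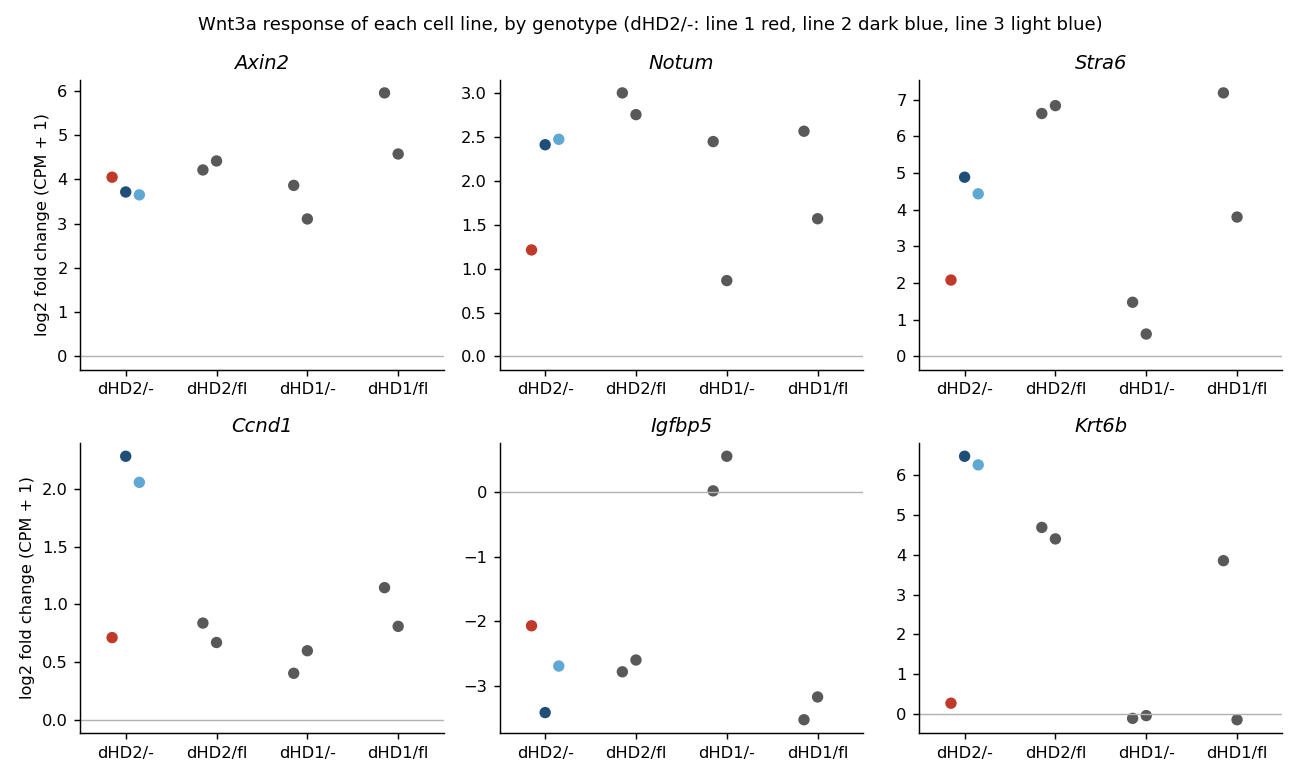
Log2 fold change with Wnt3a (y axis, on CPM + 1) of each cell line by genotype for 6 genes, with 3 lines for dHD2/- and 2 for each other genotype. Axin2 lies between 3.11 and 5.95 in all 9 lines, while Igfbp5, under 2 CPM in dHD1/- lines, is within 0.55 of 0 in both of them and Krt6b is near 0 in 4 lines including dHD2/- line 1.

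Of the 9 genes higher by 1 in all dHD2/- lines, 6 were also higher by 1 in both dHD2/fl lines (Axin2, Stra6, Mab21l4, Notum, Mal and C1qtnf1), as were 1.27% of all genes, and Axin2 alone in all 6 other lines. Of the 11 lower genes, Igfbp5, Wfdc3 and Id2 were lower by 1 in both dHD2/fl lines, as were 0.867% of all genes. Krt6b and Sprr1a were higher in both dHD2/fl lines too, by 4.40 to 4.69 and by 4.04 to 4.15, and were within 0.2 of 0 in both dHD1/- lines, against 0.26 and 0.38 in dHD2/- line 1 and 5.97 to 6.48 in lines 2 and 3. Lef1 was at most 0.362 CPM in the 12 libraries of the other genotypes, against 18.5 and 19.1 CPM in untreated dHD2/- lines 2 and 3.

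The fit called 16 genes for the difference in response between dHD2/- and dHD2/fl lines (0.121% of 13270), but the count was 0 at a pseudocount of 0.1 (310 genes at an unadjusted p under 0.05) and 0 by edgeR (247 genes). It was 2 with the nearly alike lines 2 and 3 averaged, and 2 without either of them. Of the 16 genes, 13 were under 1 CPM in all 6 libraries of dHD2/- lines and passed the expression filter through other groups. The difference was below 0 for 9 genes, among them Idi2, Spink12, Klk5 and Dsc1, which were higher with Wnt3a in dHD2/fl lines and stayed low in dHD2/- lines under both conditions. It was above 0 for 7, among them Sostdc1, Trp73, Pgap4 and Fibin, which were lower with Wnt3a in dHD2/fl lines. In dHD2/- libraries Pgap4 reached at most 2.18 CPM, and Sostdc1, Trp73 and Fibin at most 0.349 CPM. The part of these low levels in the difference was not tested. With the compared groups fitted alone, 19 genes were called, 2 above and 17 below 0, of which 5 were among the 16. Dsc1, a desmosomal cadherin of the upper epidermis, was at 0.26 and 0.48 CPM without cytokine and at 7.05 and 12 CPM with Wnt3a in dHD2/fl lines, and it had at most 1 read in any dHD2/- library. Sostdc1, a secreted antagonist of Wnt and BMP signals, was at 21.9 and 109 CPM and then at 0.72 and 28.3 CPM in dHD2/fl lines, and had at most 8 reads in a dHD2/- library.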

How the data were processed

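RNA sequencing of 27 libraries from 9 MMTV-PyMT tumour cell lines was used, of which 6 libraries of 3 dHD2/- lines entered the comparison described. The authors aligned stranded mRNA reads to mm10 with STAR, as their processing notes name it, counted reads per gene in R and deposited CPM (counts per 1e+06 reads assigned to genes) by Entrez gene identifier. Dividing by the value of 1 read returned whole reads within 0.1 for 100% of values. Values were used as log2(CPM + 1), so fold changes of low genes are understated. Genes at 1 CPM or more in at least 2 of the 27 libraries were tested (13270 of 24454 identifiers), and 24374 identifiers were given a symbol from RefSeq (GRCm38.p6).

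A linear model was fitted with limma 3.58.1 (R 4.3.3) over all libraries with the cell line as block, a trended and robust variance, and Benjamini-Hochberg adjustment over all genes, and all tests were two-sided. The 2 libraries of a line shared their deviation from the group means, with correlations of 0.712 to 0.940 over the 9 lines, and the labels give them as the same line. Where a genotype has 2 lines, both give the same value by construction. In dHD2/- lines the distance of line 1 enters every value, so the 9 values are not separate. On simulated data with 200 of 12973 genes changed 4-fold, this fit recovered 86.0% with 2 false calls. Those genes were drawn from the more abundant ones and changed alike in every dHD2/- line, unlike the measured responses. The share recovered therefore does not carry over to these data. edgeR 4.0.16 on the recovered reads was an alternative, and the GC and length correction was chosen after seeing the data.

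Named genes were those called, those that differed by at least 1 the same way in all 3 lines (up to 14 each way), a fixed set of Bcl9, Wnt and marker genes, up to 6 each way that set line 1 most apart, up to 4 each way called against dHD2/fl lines, and up to 4 per list with the lowest unadjusted p. Others, such as Tnc, Ctnnb1, Tgm1, Klk10, Mki67, Hmgcs1 and Cdh2, were named after their values were seen. The comparison and gene lists were chosen with earlier results of these data known. Counting error alone underlies the level of 3 reads.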

Additional observations from a re-analysis of the deposited data

Results flagged for a closer look

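A test of the difference in Wnt3a response between dHD2/- and dHD2/fl lines called 16 genes (limma, adjusted p of at most 0.05 and a log2 difference of at least 1). It had 374 genes at an unadjusted p under 0.05 (2.82%), fewer than that limit gives where no response differs. By edgeR 0 genes were called (247 at an unadjusted p under 0.05), and 0 at a pseudocount of 0.1 (310). With lines 2 and 3 averaged 2 were called, and 2 without dHD2/- line 2 or line 3. The difference, dHD2/- minus dHD2/fl on the log2 scale of CPM + 1, was -3.33 for Idi2, -3.29 for Spink12, -3.01 for Klk5, -2.91 for Dsc1 and -2.79 for Dnase1l2. It was -2.46 for Scel, -2.44 for Gm94, -1.50 for Tmem45a and -1.34 for Sstr2. In the other direction it was 1.46 for Krt32, 1.78 for Ptn, 1.90 for Enox1, 2.10 for Fibin, 2.12 for Pgap4, 2.15 for Trp73 and 2.70 for Sostdc1. Of these genes 13 were under 1 CPM in all 6 dHD2/- libraries. With the compared groups fitted alone 19 genes were called, 2 above and 17 below 0, and 5 of them were among the 16.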

How the results depend on the processing

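Axin2 was the 1 gene called also without filter, with median-of-ratios scaling, with lines 2 and 3 averaged, with no fold limit and with GC and length correction. The count was 2 at a pseudocount of 0.1 (Axin2 and Stra6), 3 by edgeR, 0 with the compared groups alone by limma (1390 genes at an unadjusted p under 0.05) and 394 at an unadjusted p and 1.5-fold, and leaving out 1 dHD2/- line gave 1 to 67, the highest without line 1. For the difference from dHD2/fl lines (16 genes) the count was 0 at a pseudocount of 0.1, 0 by edgeR, 2 with lines 2 and 3 averaged, 10 with GC and length correction and 289 at an unadjusted p and 1.5-fold, and leaving out 1 line gave 2 to 17, with 2 without dHD2/- line 2 or line 3. Without the block that pairs the libraries of a line, 1 gene was called for Wnt3a and 2 for the difference. At a pseudocount of 0.1, 39 genes were higher and 36 lower by 1 in all 3 lines, and 342 and 247 in lines 2 and 3. The causes were not tested. Over 54 named genes and 11 settings, 580 results kept their side of the threshold, 13 passed it anew and 1 (Axin2, compared groups alone) no longer passed. Fits of the Wnt3a response near 0 changed sign for 5 genes: Bcl9l, Rnf43, Lgr5, Dsc1 and Sostdc1. None of them was called for that response, while Dsc1 and Sostdc1 were called for the difference from dHD2/fl lines. Depth limits what can be said of genes under about 0.1 CPM.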
